A study of Homo sapiens with 14 samples.

Results

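Regions of H3K4me2 that touch the ends of at least 2 protein-coding genes were examined in the MDA-MB-231 cell line, which was derived from a triple-negative breast cancer. They were chosen by position and length. Each is shorter than 10000 bases and lies within 1 kb of an end of 2 or more different RefSeq protein-coding genes. This gave 2368 of 54942 regions (4.31%), here called shared regions. They touch 4566 of 20037 protein-coding genes (22.8%). Of these regions 2152 touch 2 genes, 199 touch 3, 15 touch 4 and 2 touch 5. The treated cells had OICR-9429, an antagonist of WDR5 (a subunit of H3K4 methyltransferase complexes), and the controls the solvent DMSO. The labels give 24 to 96 hours of treatment without a time for each library. Chromatin of Drosophila (5%) was added before the antibody. There were 3 ChIP libraries with DMSO and 3 with OICR-9429, numbered in the titles as biological replicates without saying how cultures were kept apart, so p-values measure the spread between these libraries. All libraries are from this 1 cell line.

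H3K4me2 marks promoters and distal regulatory elements and is laid down by complexes built around WDR5. Many human genes sit head to head, with their starts close together on opposite strands, so that 1 stretch of open, CpG-rich DNA serves as the promoter of both. Such bidirectional promoters are known for genes of DNA repair, mitochondria, translation and other tasks that every cell needs. Other neighbours lie tail to tail or head to tail. A read count over a region that covers the ends of several genes cannot be assigned to any of them, so each value below belongs to the region and is the same for all the genes named with it.

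Strand came from the RefSeq promoter table (GRCh38.p14), which held 15843 of the 20037 genes (79.1%). It let 1746 of the 2368 shared regions be sorted by arrangement. Starts on opposite strands and no gene tail (divergent starts) accounted for 825 regions. At least 1 start together with at least 1 tail was found in 716, tails only in 150 and starts on 1 strand only in 55. For 622 regions at least 1 gene had no entry, and their arrangement is not given.

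The DNA between the starts of divergent pairs is short. Windows from 250 bases before to 50 bases after the annotated start are shown for 6 divergent pairs described below. Only pairs whose partner starts inside the window were taken, so the short distance within these windows follows from that choice. A window is also shown for a histone pair whose starts face apart but whose short genes bring their tails into the region. All windows are from the plus strand of GRCh38.p14, credited to RefSeq, and base 251 is the start of the gene named. Capitals mark any of 8 motifs searched on both strands: CCGGAAG (ETS factors), the NRF1 motif, CCAAT (NF-Y), GGGCGG (SP and KLF factors), CACGTG (E-box), AAGATGGC (YY1), TGACGTCA (cyclic AMP response element, CRE) and, for the promoter element of that name, TATAAA. The windows are CATSPERD with LONP1 (chr19:5720387-5720686, partner start at base 66), COL4A2 with COL4A1 (chr13:110307034-110307333, base 124), HARS2 with HARS1 (chr5:140691205-140691504, base 166), PSMD13 with SIRT3 (chr11:236726-237025, base 206), ATP5F1C with KIN (chr10:7787927-7788226, base 67), CPSF4 with PTCD1 (chr7:99438693-99438992, base 106) and H2AC6 with H2BC4 (chr6:26123922-26124221, base 5).
CATSPERD: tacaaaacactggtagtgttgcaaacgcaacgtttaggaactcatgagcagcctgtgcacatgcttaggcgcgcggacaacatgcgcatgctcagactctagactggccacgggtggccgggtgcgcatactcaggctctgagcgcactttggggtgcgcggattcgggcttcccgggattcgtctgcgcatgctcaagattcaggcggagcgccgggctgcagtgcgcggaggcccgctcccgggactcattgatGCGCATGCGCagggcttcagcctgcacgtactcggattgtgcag
COL4A2: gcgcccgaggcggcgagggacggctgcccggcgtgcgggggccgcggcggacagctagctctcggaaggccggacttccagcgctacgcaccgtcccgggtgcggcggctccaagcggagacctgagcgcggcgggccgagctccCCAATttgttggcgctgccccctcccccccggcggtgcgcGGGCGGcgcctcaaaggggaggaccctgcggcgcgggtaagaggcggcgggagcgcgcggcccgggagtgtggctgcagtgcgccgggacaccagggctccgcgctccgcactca
HARS2: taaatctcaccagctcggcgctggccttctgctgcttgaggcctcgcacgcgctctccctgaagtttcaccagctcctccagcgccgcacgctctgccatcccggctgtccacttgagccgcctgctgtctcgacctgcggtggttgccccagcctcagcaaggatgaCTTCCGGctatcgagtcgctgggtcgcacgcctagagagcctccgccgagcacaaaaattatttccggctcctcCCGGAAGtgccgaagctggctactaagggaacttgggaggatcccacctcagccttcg
PSMD13: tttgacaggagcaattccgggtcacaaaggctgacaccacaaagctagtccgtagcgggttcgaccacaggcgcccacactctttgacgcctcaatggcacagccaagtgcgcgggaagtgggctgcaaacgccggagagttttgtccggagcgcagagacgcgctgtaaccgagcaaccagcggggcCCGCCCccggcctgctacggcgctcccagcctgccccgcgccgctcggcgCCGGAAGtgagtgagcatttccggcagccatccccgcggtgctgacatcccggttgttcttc
ATP5F1C: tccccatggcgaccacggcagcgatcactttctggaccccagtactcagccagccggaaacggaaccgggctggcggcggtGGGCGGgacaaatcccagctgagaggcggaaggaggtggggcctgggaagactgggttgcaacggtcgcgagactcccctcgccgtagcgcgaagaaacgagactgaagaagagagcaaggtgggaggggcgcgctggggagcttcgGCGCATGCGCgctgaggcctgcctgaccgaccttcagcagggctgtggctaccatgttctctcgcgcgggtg
CPSF4: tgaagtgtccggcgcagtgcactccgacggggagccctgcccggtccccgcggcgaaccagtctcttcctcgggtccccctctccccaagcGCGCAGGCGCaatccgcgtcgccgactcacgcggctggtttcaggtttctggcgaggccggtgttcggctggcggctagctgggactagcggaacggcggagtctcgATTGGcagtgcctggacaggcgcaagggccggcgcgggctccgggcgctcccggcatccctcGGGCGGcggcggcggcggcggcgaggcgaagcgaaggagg
H2AC6: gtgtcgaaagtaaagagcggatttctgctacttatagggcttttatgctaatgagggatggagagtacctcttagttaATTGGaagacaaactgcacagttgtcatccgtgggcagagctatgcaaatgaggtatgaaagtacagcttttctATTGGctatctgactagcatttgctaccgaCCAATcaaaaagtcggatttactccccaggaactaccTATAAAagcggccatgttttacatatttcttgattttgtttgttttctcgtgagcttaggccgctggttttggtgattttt

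These windows differ in their motifs. The window shared by HARS1 and HARS2, which encode the cytosolic and mitochondrial histidyl-tRNA synthetases, holds the ETS letters at bases 169 and 243, and that of PSMD13 at base 239. The windows of CATSPERD, ATP5F1C and CPSF4 hold the NRF1 motif at bases 257, 229 and 92. Of the windows shown, the histone window is the one with TATA letters (base 220), and it holds the CCAAT letters at bases 79, 153 and 183, on either strand. Its GC content is 41%, against 61.3% to 77.7% in the other windows shown.

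A window at the gene's outer start was found for 1423 of 1631 genes with a start in a tested divergent region. The ETS letters were in 27.2% of these windows, in 17.0% of the 5536 windows of genes that start in a region touching no other gene, and in 14.6% of all 13820 protein-coding windows. Where divergent starts lay 0 to under 300 bases apart the share was 35.1%. NRF1 letters were in 15.2%, 11.3% and 8.88% of the divergent, lone-start and all windows. The TATA letters went the other way, at 2.67%, 5.27% and 10.0%. The CCAAT letters were in 38.2%, 36.0% and 37.1%, and GGGCGG in 72.2%, 72.0% and 58.5%. E-box letters stood at 9.70%, 9.90% and 8.95%, YY1 at 7.17%, 5.02% and 4.11%, and CRE at 2.88%, 3.40% and 2.70%. A ratio of observed to expected CpG over 0.6 was found in 91.5% of divergent, 84.3% of lone-start and 66.4% of all windows. Windows of paired genes overlap, so 1 site can count for both; with the plus-strand gene alone the ETS shares were 26.5% (722 divergent windows) and 18.1% (2824 lone-start windows). These are shares of windows holding the letters, given as a description with no test.

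Shared regions were wide and strong. Their median length was 4536 bases, against 3181 for the 9570 regions under 10000 bases that touch the ends of 1 gene only (single regions) and 1570 for all regions. After a filter on low counts 2266 of the 2368 shared regions were tested, with a median of 40.9 CPM (read counts scaled to library sizes that were corrected with TMM), against 31.6 for single regions and 10.0 for all tested regions. Per kilobase the order was the other way: the median with DMSO was 7.74 ± 0.917 CPM (SD, n = 3) at shared and 8.32 ± 0.975 at single regions. Tails-only regions carried much less, 3.33 ± 0.264 CPM per kilobase. Total counts were 16483098 to 23509413 per library. Gene-end regions of VIM, CD44, EGFR, AXL and ZEB1, genes of the mesenchymal type of this line, lay at 7.93 to 12.4 CPM per kilobase with DMSO. Of 5 genes typical of luminal breast cells, which this line is not, ESR1 and TFF1 had no gene-end region, while PGR, ERBB3 and FOXA1 had regions at 6.09 to 9.12.

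The groups allow a comparison of H3K4me2 with and without the WDR5 antagonist. With OICR-9429 a larger share of all counts lay in shared regions. The share was 8.93%, 8.55% and 9.63% in DMSO replicates 1 to 3 and 10.9%, 10.1% and 9.99% in OICR-9429 replicates 1 to 3. Every OICR-9429 library was above every DMSO library, with DMSO replicate 3 nearest to them. The means were 9.04% ± 0.546 and 10.3% ± 0.487 (SD, n = 3), a difference of 1.28 percentage points (exact two-sided permutation test, p = 0.1, the smallest that 3 against 3 libraries can give). Tails-only regions, which hold few counts, went the other way, from 0.179% ± 0.00736 to 0.163% ± 0.00484 (exact permutation test, p = 0.1). That fall was not particular to them. Scaled by library totals, the median log2 fold change was -0.14 at tails-only regions and -0.17 over all tested regions. The rise at shared regions was not particular to them either. Of the counts in shared and single regions together, shared regions held 23.3% ± 0.046 with DMSO and 23.7% ± 0.105 with OICR-9429 (exact permutation test, p = 0.1). Counts in single regions thus rose almost in step.

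Of the 2266 tested shared regions, edgeR's quasi-likelihood test called 1284 higher (56.7%) and 51 lower (2.25%) in the treated libraries (adjusted p under 0.05). Among all 51156 tested regions 17.0% were called higher and 14.0% lower. The median log2 fold change was 0.39 at shared regions, 0.36 at single regions, of which 45.8% were called higher, and 0.03 over all regions. In 1500 shared regions (66.2%) every treated library exceeded every control, against 24.8% of all regions. The scaling changed this count. Scaled by library totals, 597 were higher and 99 lower, and the overall median became -0.17, with 0.19 at shared regions. With loess offsets, which remove each library's trend with region strength, 167 were higher and 63 lower; 5.38% of all regions were then called higher and 8.78% lower. The Drosophila spike-in was not used, so a gain or loss common to all regions cannot be seen. Under all 4 scalings run 135 shared regions (5.96%) were called higher and 31 (1.37%) lower, beside 2.08% and 6.31% of all tested regions and 5.39% and 1.81% of single regions.

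The count depended on single libraries too. Relative to the mean of the 6 libraries, the median shared region stood at -0.22, -0.35 and 0.00 on the log2 scale in DMSO replicates 1 to 3 and at 0.31, 0.13 and 0.14 in OICR-9429 replicates 1 to 3. DMSO replicate 3 thus lay nearer to OICR-9429 replicates 2 and 3 than to DMSO replicate 2. Without DMSO replicate 1 the higher calls fell to 161, and without DMSO replicate 2 to 134. They numbered 1758 without DMSO replicate 3, and 627, 711 and 902 without OICR-9429 replicates 1, 2 and 3. The lower calls numbered 32 without DMSO replicate 2, and 84, 31 and 32 without OICR-9429 replicates 1, 2 and 3. The median log2 fold change of shared regions was 0.26 to 0.49 in these fits.

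**Figure D1:**
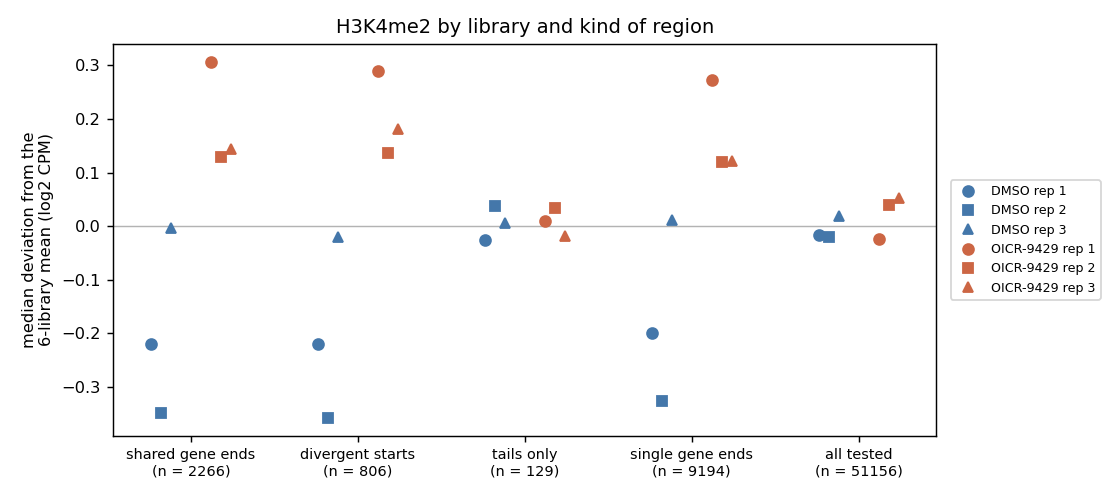
Median deviation of each library from the mean of the 6 libraries (y axis, log2 normalised CPM) for 5 sets of regions (x axis, number of tested regions below each name); each point is 1 library, with DMSO in blue and OICR-9429 in orange. At shared regions the libraries run from -0.35 (DMSO replicate 2) to 0.31 (OICR-9429 replicate 1) with DMSO replicate 3 at 0.00, while at tails-only regions the groups overlap.

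The counts differed with the arrangement of the genes. Of regions with divergent starts, which include 220 pairs that overlap at their starts, 523 of 806 tested (64.9%) were called higher and 0 lower by edgeR with TMM. DESeq2's Wald test also called 0 of them lower, and 3 were lower at an unadjusted edgeR p under 0.05. With loess offsets edgeR called 57 higher and 2 lower. The higher calls fell to 70 without DMSO replicate 1 and to 60 without DMSO replicate 2, and numbered 270, 273 and 329 without OICR-9429 replicates 1, 2 and 3. The median change was 0.40, with quartiles of 0.31 and 0.48. Starts on 1 strand had 33 higher and 0 lower of 51 (median 0.40; DESeq2 also called 0 lower, 0 were lower at an unadjusted edgeR p under 0.05, and loess offsets gave 6 higher and 0 lower). A start with a tail gave 395 higher and 11 lower of 690 (median 0.40), with 51, 34, 180 and 241 higher without DMSO replicate 1, DMSO replicate 2, OICR-9429 replicate 1 and OICR-9429 replicate 2. Within that class the 140 regions that also held starts on both strands, a split made after the values were seen, had 109 higher and 0 lower (median 0.46; DESeq2 also called 0 lower, 0 were lower at an unadjusted edgeR p under 0.05, and loess offsets gave 17 higher and 1 lower). Tails-only regions had 17 higher and 16 lower of 129, with a median of 0.06 and quartiles of -0.24 and 0.26. Leaving out 1 library gave 3 to 16 higher and 10 to 20 lower; without DMSO replicate 1 there were 3 higher, without DMSO replicate 2 there were 4 higher and 10 lower, without OICR-9429 replicates 1, 2 and 3 there were 9, 8 and 11 higher, and without OICR-9429 replicate 2 there were 10 lower. Regions at the tail of 1 gene alone had 90 higher and 144 lower of 964 (median -0.02), and regions at the start of 1 gene alone 3254 higher and 136 lower of 6241 (median 0.38).

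The difference between divergent and tails-only regions was larger with OICR-9429. The median divergent region exceeded the median tails-only region by 2.44, 2.29 and 2.82 on the log2 CPM scale in DMSO replicates 1 to 3, and by 3.31, 2.96 and 3.09 in OICR-9429 replicates 1 to 3. The groups did not overlap, and the gap grew by 0.60 (exact two-sided permutation test, p = 0.1, the smallest possible). With loess offsets the median log2 fold changes were 0.12 for divergent and 0.08 for tails-only regions, and the growth of the gap was 0.10 (exact permutation test, p = 0.3). The median strength was 5.56 CPM at tails-only and 44.3 CPM at divergent regions. In deciles 7, 8 and 9 of mean strength over all tested regions the median change was 0.32, 0.39 and 0.41 at divergent regions. At the 13, 11 and 15 tails-only regions there it was -0.12, 0.19 and 0.08. With loess offsets these medians were 0.23, 0.18 and 0.12 against -0.23, -0.02 and -0.23. In decile 10, with 5 tails-only regions, the TMM medians were 0.41 and 0.43. Deciles 1 to 5 held 13 divergent regions. The difference within deciles was not tested.

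**Figure D2:**
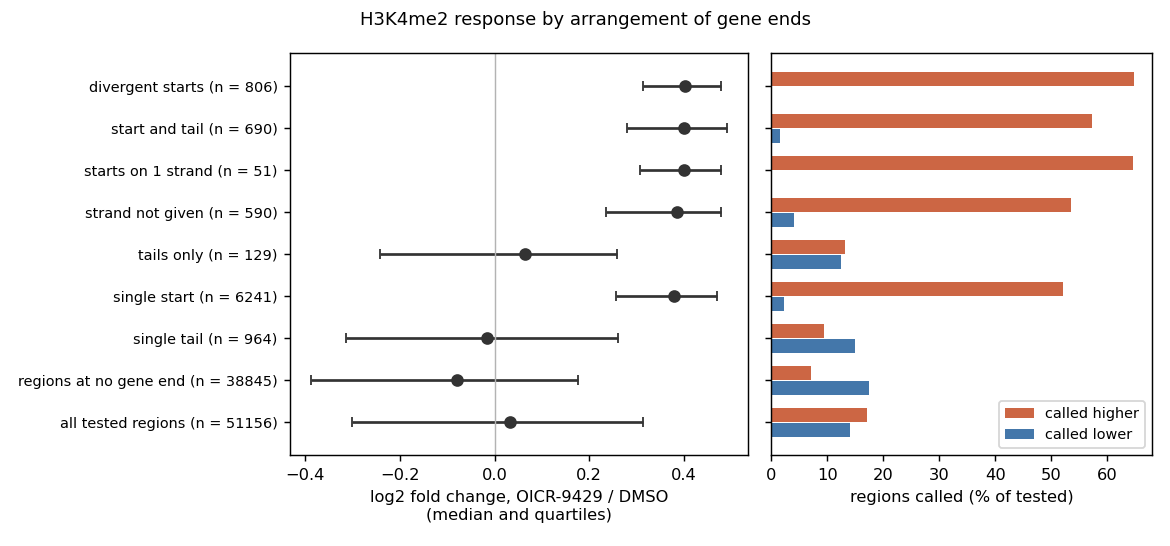
Left, median and quartiles of the log2 fold change (x axis, OICR-9429 over DMSO) for each arrangement of gene ends and for comparison sets (y axis, tested regions in brackets); right, percent of tested regions called higher (orange) or lower (blue) by edgeR at an adjusted p under 0.05. Shared regions that hold a gene start and lone starts have medians of 0.38 to 0.40, and tails-only regions lie at 0.06, near the 0.03 of all regions.

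Shared and single regions of the same high strength had nearly the same median change. In deciles 8, 9 and 10 of mean strength over all tested regions the median change was 0.38, 0.41 and 0.42 at shared and 0.37, 0.40 and 0.41 at single regions, and these deciles held 83.9% of shared and 70.7% of single regions. Regions there that touch no gene end had a median of 0.15. In deciles 1 to 5, where the difference was not tested, the median was 0.02 at shared regions (17 higher and 29 lower of 196) and -0.18 at single regions (61 higher and 272 lower of 1262). Over all strengths, the median shared region exceeded the median single region by 0.35 ± 0.01 log2 CPM with DMSO and 0.38 ± 0.01 with OICR-9429 (SD, n = 3), a difference of 0.03 whose groups did not overlap (exact two-sided permutation test, p = 0.1). It was -0.0096 with loess offsets (exact permutation test, p = 0.5). Divergent against lone-start regions gave 0.03 with overlapping groups (exact permutation test, p = 0.2). Regions touching 3 or more genes, with a median length of 5677 bases, had 137 higher and 1 lower of 206 (median 0.42), against 1147 and 50 of 2060 (0.39) for those touching 2. With loess offsets the shares called higher had the other order, 6.31% (13 regions) against 7.48% (154 regions).

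**Figure D3:**
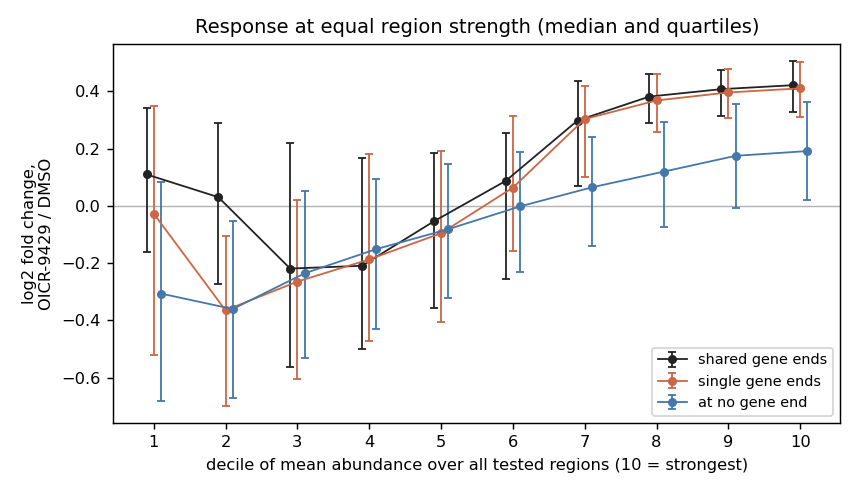
Median and quartiles of the log2 fold change (y axis, OICR-9429 over DMSO) in each decile of mean abundance (x axis, 10 the strongest) for shared regions, single regions and regions at no gene end. Shared and single regions nearly coincide in deciles 8 to 10, at 0.38 to 0.42 and 0.37 to 0.41, both above regions at no gene end, and lie furthest apart in decile 2, at 0.03 and -0.36.

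The medians were alike at all distances between divergent starts. The distance had a median of 119 bases, 220 of 806 pairs overlapped at their starts, and 726 pairs lay under 1000 bases apart in either sense. Overlapping pairs had 145 of 220 called higher (median 0.42), pairs 0 to under 300 bases apart 283 of 433 (0.40), pairs 300 to 1000 bases apart 66 of 111 (0.39) and pairs further apart 29 of 42 (0.41). In these 4 sets 0 were called lower by edgeR with TMM or by DESeq2; 1, 2, 0 and 0 were lower at an unadjusted edgeR p under 0.05, and 1, 1, 0 and 0 were called lower with loess offsets. Starts are those of the whole annotated gene, and other starts of a gene were not used.

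**Figure D4:**
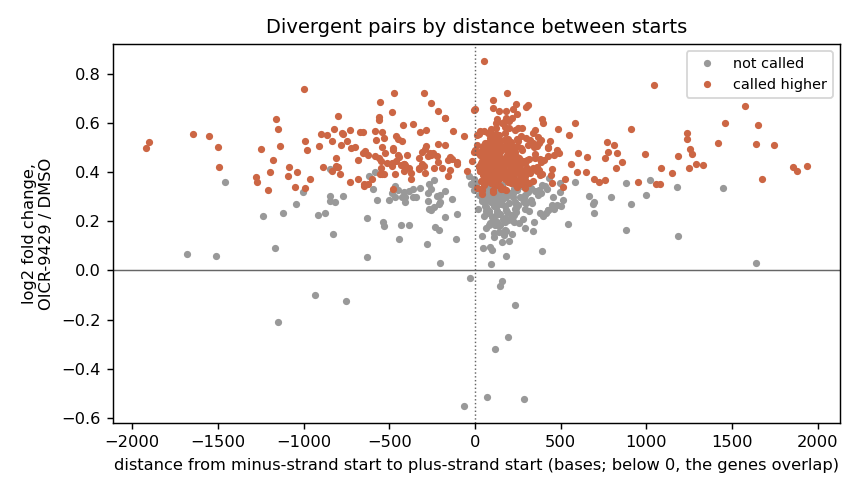
Log2 fold change (y axis, OICR-9429 over DMSO) of each divergent region against the distance from the minus-strand to the plus-strand start (x axis, bases); regions called higher are orange and the others grey, and 782 of 806 pairs lie within the 2000 bases drawn. Most points lie in a band above 0 at all distances drawn. Of all 806 regions 794 (98.5%) are above 0, beside 90.9% of lone starts and 52.9% of all tested regions.

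Among shared regions of at least median strength, 11 of the largest rises lay between 0.71 and 0.83 on the log2 scale, and each was called higher under all 14 other fits run for single regions (log2 fold changes of 0.38 to 0.49 with loess offsets). The largest was at BMP4, which encodes a bone morphogenetic protein ligand, and the predicted gene LOC124903317 (chr14:53950005-53958021). It read 101, 89.0 and 109 CPM in DMSO replicates 1 to 3 and 194, 163 and 172 in OICR-9429 replicates 1 to 3 (log2 fold change 0.83, SE 0.12, adjusted p = 0.000704). Every OICR-9429 library was above every DMSO library, with a wide gap between the groups.

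The region over H2AC20, H2AC21 and H2BC21, which encode the core histones H2A and H2B (chr1:149884116-149890107), read 68.4, 61.7 and 82.7 CPM with DMSO and 135, 108 and 123 with OICR-9429 (0.78, SE 0.13, adjusted p = 0.00174). At another histone pair, H2AC6 and H2BC4, the pair with the TATA letters shown above (chr6:26120770-26128226), values were 75.4, 68.9 and 88.1 CPM with DMSO and 142, 122 and 124 with OICR-9429 (0.74, SE 0.12). The groups did not overlap at either region. Of the 15 shared regions with a histone gene all 15 were called higher, from 0.35 at H2AC13 / H2AC14 / H2BC13 / H2BC14 / H3C10 to 0.78, with a median of 0.53; 56.7% of all shared regions were called higher. With loess offsets 6 of the 15 were called higher and 0 lower, beside 7.37% and 2.78% of all shared regions. These 15 regions were also stronger, with a median of 80.1 CPM against 40.9 for tested shared regions. Some histone genes are close copies of each other, so values are uncertain where reads could fit several copies.

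ISG20L2, a nuclease of ribosomal RNA processing, shares its region with METTL25B (chr1:156723114-156730117), which read 76.5, 68.6 and 94.5 CPM with DMSO and 140, 128 and 127 with OICR-9429 (0.72, SE 0.13, adjusted p = 0.00224). TSR1, a factor of small ribosomal subunit maturation, lies apart from SGSM2 by 1044 bases in 1 region (chr17:2333472-2339450) that read 58.0, 52.7 and 73.2 CPM with DMSO and 118, 96.3 and 95.8 with OICR-9429 (0.76). SQSTM1 encodes the autophagy receptor p62 and MGAT4B a glycosyltransferase; their region (chr5:179802325-179809257) read 70.7, 61.2 and 85.3 CPM with DMSO and 138, 113 and 107 with OICR-9429 (0.72). The mitochondrial protease gene LONP1 and the sperm channel gene CATSPERD, whose window is printed above, read 38.9, 37.9 and 44.6 CPM with DMSO and 76.5, 61.2 and 62.3 with OICR-9429 (0.72). The groups did not overlap at any of these 4. The others were ARAP1 with the lipid transfer gene STARD10 (0.76), the S-phase factor gene E2F3 with LOC124901482 (0.76), CEBPD with SPIDR (0.72) and the enolase gene ENO2 with LRRC23 (0.71).

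**Figure D5:**
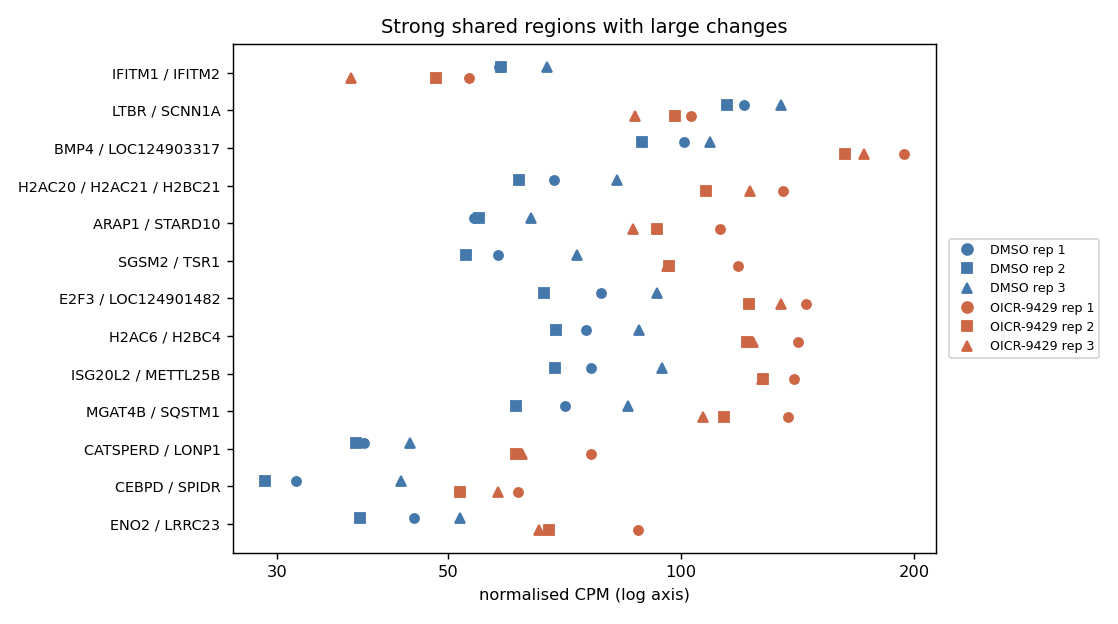
Normalised CPM (x axis, log scale) of each library at 13 shared regions of at least median strength with large called changes (y axis); DMSO is blue, OICR-9429 orange, and symbols are replicates. In the 11 regions that were higher the orange points lie right of all blue points, and at IFITM1 / IFITM2 and LTBR / SCNN1A they lie left of them.

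Of the shared regions of at least median strength, 2 were called lower with groups that did not overlap. IFITM1 and IFITM2 encode interferon-induced membrane proteins that restrict viruses. Their region (chr11:307634-315663) read 58.2, 58.5 and 67.1 CPM with DMSO and 53.2, 48.2 and 37.4 with OICR-9429 (log2 fold change -0.40, SE 0.14, adjusted p = 0.0385). LTBR encodes the lymphotoxin beta receptor and SCNN1A a subunit of the epithelial sodium channel; their region (chr12:6368800-6378702) read 121, 115 and 135 CPM with DMSO and 103, 98.0 and 87.3 with OICR-9429 (-0.36, SE 0.12, adjusted p = 0.0304). Treated libraries were the lower ones in each, by narrow margins. Under loess offsets these changes were -0.73 and -0.70 (adjusted p = 0.0015 and 0.000525). Both calls were lost with the replicate number as a block, against a fold of 1.2, and without OICR-9429 replicate 2 or 3; that at IFITM1 was lost without DMSO replicate 3 too.

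The other 49 lower regions were below the median strength of shared regions. Of all 51, 16 were tails only, 11 a start with a tail, 0 divergent and 24 had no arrangement given. The regions described in this paragraph were chosen after their values were seen. The largest fall among them lay between the tails of AIM2 and IFI16, which encode sensors of foreign DNA (chr1:159054270-159055357): 7.57, 5.73 and 6.29 CPM with DMSO and 1.03, 1.64 and 2.07 with OICR-9429 (-2.07, SE 0.23, adjusted p = 0.000212). Every treated library was far below the lowest control. The tails of ROBO3 and ROBO4, receptors of axon and vessel guidance, met in a region that fell from 6.32 ± 0.905 to 2.74 ± 0.725 CPM (-1.20, adjusted p = 0.00185). The tails of FIP1L1, a factor of polyadenylation, and LNX1 fell by 1.31, and those of MAP3K12 and PCBP2 by 1.05 on the log2 scale. A strong tails-only region at GOT1, which encodes the cytosolic aspartate aminotransferase, and CNNM1 (chr10:99391589-99397721) read 40.8, 41.5 and 42.3 CPM with DMSO and 26.4, 28.1 and 29.9 with OICR-9429 (-0.56, SE 0.12, adjusted p = 0.00582; -0.85 with loess offsets). Its groups did not overlap, and the DMSO libraries lay close together. Tails-only regions that rose included ERFE with ILKAP (0.69) and PCIF1 with ZNF335 (0.56). At the ends of NHSL3 and the tyrosyl-tRNA synthetase gene YARS1, whose arrangement is not given (chr1:32773569-32776367), counts fell from 6.61 ± 0.339 to 2.24 ± 0.141 CPM (-1.57, adjusted p = 0.000219).

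Neighbouring gene pairs were also listed from general knowledge. Of 33 pairs 21 lay in a shared region, 7 in a region of 10000 bases or more and 5 in neither; 20 were tested. Of these 16 were called higher and 0 lower by edgeR (DESeq2 also called 0 lower, and 0 were lower at an unadjusted edgeR p under 0.05), with a median of 0.44 beside 0.39 for all shared regions. The share called higher was 80%, beside 56.7% of all shared regions and 17.0% of all tested regions. These pairs were also stronger, with a median of 52.8 CPM against 40.9 for tested shared regions. With loess offsets 1 of the 20, BRCA2 with ZAR1L, was called higher and 0 lower (median 0.15), beside 7.37% and 2.78% of all shared regions. COL4A1 and COL4A2 encode the chains of basement membrane collagen and face apart over 127 bases. Their region (chr13:110305507-110309718) read 43.6, 36.3 and 53.1 CPM with DMSO and 80.2, 61.2 and 62.5 with OICR-9429 (0.62, SE 0.15, adjusted p = 0.0102). With loess offsets it stood at 0.30 and was not called (adjusted p = 0.0550). HSPD1 and HSPE1, the mitochondrial chaperonin and its partner, read 51.5, 40.4 and 54.2 CPM with DMSO and 78.5, 67.0 and 73.2 with OICR-9429 (0.58, adjusted p = 0.00774). The groups were apart at both. BRCA2, a gene of DNA break repair, and ZAR1L stood at 0.57 (adjusted p = 0.0110). Other pairs called higher were AP3S1 with the autophagy gene ATG12 (0.54), PSMD13 with the deacetylase gene SIRT3 (0.51), SLC25A1 with CLTCL1 (0.49), MRPL9 with OAZ3 (0.48), CPSF4 with PTCD1 (0.45), the flap endonuclease gene FEN1 with TMEM258 (0.43), MRPS12 with SARS2 (0.43, groups overlapping), the mitotic phosphatase gene CDC25C with FAM53C (0.42), HARS1 with HARS2 (0.39), FANCF with GAS2 (0.38) and ATP5F1C with KIN (0.33).

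Of the listed pairs that missed the threshold, 3 stood at 0.25 to 0.33, and each was called higher without DMSO replicate 3. The kinase gene ATM and NPAT, a coactivator of histone genes (chr11:108219205-108227296), read 74.3, 59.6 and 81.0 CPM with DMSO and 85.6, 81.2 and 88.0 with OICR-9429 (0.25, SE 0.13, adjusted p = 0.148). The lowest treated library barely exceeded the highest control. RAD51AP1, a gene of homologous recombination, stood with FERRY3 at 0.33 (adjusted p = 0.0509), and IK with NDUFA2 and TMCO6 at 0.33 (adjusted p = 0.0758). With loess offsets the ATM and ATP5F1C regions turned to -0.08 and -0.0052.

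Some lists of genes had a large share of their members at shared regions. Of 153 listed genes of DNA repair and replication 67 did (43.8%), of 109 respiratory chain and ATP synthase genes 53 (48.6%), of 38 aminoacyl-tRNA synthetase genes 18 (47.4%), of 77 mitochondrial ribosomal protein genes 34 (44.2%), and of 36 genes of mitochondrial import and chaperones 18 (50%), beside 22.8% of all protein-coding genes. Of 180 genes of collagens, matrix and adhesion 24 did (13.3%). The remaining lists ran from 18.1% (zinc finger genes) to 40.5% (histones). The 22.8% counts all protein-coding genes, whether or not they have an H3K4me2 region, and the differences between lists were not tested. The lists are from general knowledge and several take all symbols with a common prefix.

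The regions given with a value for each list are among the 3 with the smallest p, apart from those described earlier, and for comparison 56.7% of all shared regions were called higher, with a median of 0.39. DNA repair and replication had 45 higher and 0 lower of 72 (median 0.39), with the abasic site nuclease gene APEX2 with PFKFB1 (0.67), the primase gene PRIM2 with RAB23 (0.55) and DDB1 with TKFC (0.54). Respiratory chain genes had 33 higher and 1 lower of 53 (0.40), with NDUFB11 with RBM10 (0.62) and NDUFS1 with EEF1B2 (0.59). Mitochondrial ribosomal proteins had 20 higher and 0 lower of 34 (0.38), with MRPS2 and PIERCE1 at 0.65. Import and chaperone genes had 14 higher and 0 lower of 17 (0.49), among them PARG with TIMM23B (0.55). Aminoacyl-tRNA synthetases had 12 higher and 2 lower of 19 (0.43); WARS1 with WDR25 rose by 0.60 and MARS1 with ARHGAP9 by 0.61. Cytosolic ribosomal proteins had 20 higher and 0 lower of 30 (0.41), with RPL41 with ZC3H10 (0.68) and RPS16 with PLEKHG2 (0.59). Proteasome genes had 11 higher and 0 lower of 18 (0.44), with PSMB4 and POGZ at 0.63; the list goes by symbol prefix and takes in PSME3IP1, which is no proteasome subunit. Zinc finger genes had 52 higher and 1 lower of 77 (0.44), with ZNF277 with DOCK4 (0.67) and ZNF470 with ZNF470-DT (0.68).

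Splicing and RNA processing genes had 25 higher and 1 lower of 47 (0.36), with LSM5 and AVL9 at 0.50. Vesicle traffic genes had 41 higher and 1 lower of 65 (0.41), with RAB13, NUP210L and RPS27 together at 0.57. Cell cycle genes had 12 higher and 1 lower of 23 (0.33), among them CCNE2 with NDUFAF6 (0.57), and the lower one lay between the tails of CCNA2 and EXOSC9, where counts fell from 2.81 ± 0.392 to 1.31 ± 0.554 CPM. Genes of collagens, matrix and adhesion had 8 higher and 3 lower of 20 (0.35). Of these a region at the ends of SIDT2 and TAGLN fell from 14.9 ± 0.498 to 8.03 ± 0.793 CPM (-0.89, adjusted p = 0.000992), while PCDH7 with LOC124900844 rose (0.68). Interferon and antigen presentation genes had 3 higher and 2 lower of 12 (0.30), the lower ones being the AIM2 and IFITM1 regions. The list of H3K4 methylation machinery holds genes of enzymes that add the mark and of enzymes that remove it. Of its 9 shared regions 6 were higher and 0 lower (0.45). Among them were the demethylase genes KDM5C with IQSEC2 (0.65) and KDM1B with TPMT (0.58), and the methyltransferase gene SETD1A with HSD3B7 (0.57). In the 7 lists with 0 lower calls by edgeR, histones included, DESeq2 called 0 lower as well; at an unadjusted edgeR p under 0.05, 1 region of DNA repair and replication and 1 of cytosolic ribosomal proteins were lower and 0 in the others.

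With loess offsets few of these list calls were made. For comparison, 7.37% of all shared regions were then called higher and 2.78% lower. Over all tested regions these shares were 5.38% and 8.78%. The higher and lower calls were then 5 and 0 for DNA repair and replication, 4 and 1 for the respiratory chain, 1 and 1 for mitochondrial ribosomal proteins, 2 and 0 for import and chaperones, and 3 and 1 for aminoacyl-tRNA synthetases. They were 4 and 3 for cytosolic ribosomal proteins, 1 and 1 for the proteasome, 8 and 1 for zinc finger genes, 2 and 0 for splicing, 1 and 1 for vesicle traffic and 1 and 0 for the cell cycle. Collagens, matrix and adhesion had 4 and 2, interferon and antigen presentation 0 and 2, and the H3K4 machinery 3 and 0.

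Values just inside and outside the limits of the rule were as follows. Shared regions of 9000 to under 10000 bases had 65 higher and 1 lower of 102 (median 0.38), and regions touching 2 or more genes with 10000 to under 11000 bases had 45 higher and 0 lower of 81 (0.36; DESeq2 also called 0 lower, 0 were lower at an unadjusted edgeR p under 0.05, and loess offsets gave 9 higher and 3 lower). The 215 shared regions that have fewer than 2 genes within 500 bases had 75 higher and 21 lower (0.30).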

How the data were processed

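H3K4me2 ChIP-seq of MDA-MB-231 cells was deposited as 1 table of whole-number read counts per region for 6 ChIP libraries; the authors' counts were used as deposited. Per the submitters' processing notes, which give no role or order, Bowtie, MACS2, deepTools, featureCounts and DESeq2 were used with the builds hg38 and dm6; versions and the merging of regions across libraries are not stated there. The 7 inputs and the untreated ChIP library were not analysed here.

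Gene ends came from RefSeq, and strand and promoter windows from its promoter table (GRCh38.p14). Counts were filtered with filterByExpr, scaled with TMM and tested with edgeR 4.0.16 (R 4.3.3; quasi-likelihood, Benjamini-Hochberg over 51156 regions, threshold 0.05). The script was tested on simulated data. DESeq2 1.42.0, other scalings, filters, thresholds, a replicate block and leaving out each library were alternatives. The members and lists were chosen with earlier results of these data known. Regions named in the text are up to 12 with the most positive and 12 with the most negative called log2 fold changes among those of at least median strength with groups that do not overlap, all listed pairs, and up to 3 per list with the smallest p; lower and tails-only regions named beyond these were chosen after their values were seen. Single-library values use log2 of CPM plus 0.5. Some regions that this rule picks are not reported here; they stay in all counts.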

Additional observations from a re-analysis of the deposited data

How the results depend on the processing

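The direction of the difference in share of counts was the same under all alternatives run. Its size, 1.28 percentage points, was 0.995 to 1.57 with 1 library left out and 0.663 with loess offsets. The number of shared regions called higher, 1284, was 597 with library totals, 167 with loess offsets, 853 with a mean count of at least 50, 126 against a fold of 1.2, 209 at an adjusted p under 0.01, and 134 to 1758 with 1 library left out. The number called lower, 51, was 99 with library totals, 22 against a fold of 1.2, 19 at 0.01, 30 with ends within 500 bases, 22 where the region covers the ends, and 31 to 84 with 1 library left out. For divergent starts, 523 higher became 229 with library totals, 57 with loess offsets, 54 against a fold of 1.2, 85 at 0.01 and 60 to 711 with 1 library left out. For a start with a tail, 395 higher became 209, 55, 39 and 68 under the same 4 settings and 34 to 550 with 1 library left out. For tails only, 17 higher became 5 with library totals, 10 with DESeq2 size factors, 11 with loess offsets, 11 without a filter, 11 with DESeq2's Wald test, 8 where the mean count was 50 or more, 4 against a fold of 1.2, 4 at 0.01 and 3 to 16 with 1 library left out; 16 lower became 32 with library totals, 8 against a fold of 1.2, 7 at 0.01 and 10 to 20 with 1 library left out. With loess offsets the difference between shared and single regions turned to -0.0096, and ATM / NPAT and ATP5F1C / KIN to -0.083 and -0.0052 on the log2 scale. Searching 1 strand only, the divergent windows with the letters of ETS, NRF1, NF-Y, SP/KLF, YY1 and TATA were 15.5%, 9.77%, 23.5%, 48.3%, 4.50% and 1.55%, since fewer sites are searched. The cause of the other changes was not tested.

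Deviations of same-numbered libraries from their group means had correlations of -0.157, 0.182 and -0.194. With 3 libraries in each group, these values cannot settle whether the numbers pair the samples. With the number as a replicate block 1010 shared regions were higher and 34 lower, divergent starts had 417 higher, a start with a tail 306 higher, and tails only 10 higher and 11 lower. For the values with 1 number per library, flipping signs within the replicate block gives 0.25 at the smallest.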
